A study of Xenopus laevis with 46 samples.

Results

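Gene expression was compared between control Xenopus laevis embryos at stage 10.5, the early gastrula, and at stage 9, the late blastula. The members are the 11 control libraries out of 46 in the series, with 6 from stage 10.5 and 5 from stage 9. They were chosen by their labels alone. Each library was made from whole embryos of the Nasco strain cultured in dilute saline, and the labels of the controls name no injection or treatment. The other libraries of the series, which came from injected embryos, lithium-treated embryos and dissected dorsal and ventral parts, were not used in the comparison. The labels say neither how many embryos went into a library nor whether replicates came from separate clutches, although the headings of the deposited tables describe each control and its treated groups as an independent experiment. The p-values therefore measure the spread between these libraries. RNA was selected for polyA tails and sequenced as single reads of 100 bases.

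The frog egg is loaded with maternal RNA, and the embryo's own genome is switched on broadly only at the midblastula transition. By the late blastula, maternal β-catenin on the dorsal side and Nodal signals from the vegetal cells have begun to activate the first zygotic genes. By the early gastrula, the Spemann organizer has formed on the dorsal lip, the germ layers have their own transcription factors, and many maternal RNAs have been cleared. The comparison therefore spans the late part of the handover from maternal to zygotic RNA. Xenopus laevis is an allotetraploid, and most genes have a copy on an L and on an S chromosome, which are written here as .L and .S.

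Values are RPKM, read counts divided by transcript length and by the library's mapped reads, deposited by the authors in a separate table for each stage. The tables share 36844 gene models, called rows below, and 30578 of the 30579 rows whose gene length could be recovered in both tables had the same length. Since each stage had a table of its own, a difference in how the tables were made and a difference between the stages cannot be told apart. The read totals by which RPKM were divided, recovered from the values, were 28680768 to 43641791 at stage 10.5 and 30173290 to 58468853 at stage 9. Rows with 1 RPKM or more in at least 2 libraries, 18597 in all, were tested with limma on log2(scaled RPKM + 0.5), and a row was called at a Benjamini-Hochberg adjusted p below 0.05. Each log2 fold change, stage 10.5 over stage 9, is a difference of log2(scaled RPKM + 0.5), given with its standard error (SE), and understates the change of low genes. The amount by which a row rose or fell is this log2 fold change unless a fold is named. RPKM given below are the deposited values, while overlap between the stages was judged on the scaled values, so deposited ranges can touch where the stages are called separate. Some control libraries of the 2 stages could be paired through the labels of treated libraries, by a choice among conflicting numbers described near the end, and a fit with the pairs is quoted where it changes a call. Where a row carries no gene name, the name of its best human match is given and called a match.

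Libraries of the same stage were more alike than libraries of different stages, by a margin that was small for some libraries. Pearson correlations of the log2 values ran from 0.937 to 0.961 between libraries of stage 10.5 and from 0.933 to 0.954 between libraries of stage 9, and from 0.816 to 0.928 across the stages. Of the rows tested, 6912 were called (37.2%), of which 3115 were higher at stage 10.5 (16.8%) and 3797 were lower (20.4%). With a change of at least 2-fold, 2706 rows were called (14.6%): 1364 rows were higher (7.33%) and 1342 were lower (7.22%). In 4455 rows (24.0%) the libraries of the stages did not overlap. The share of calls that were higher depended on the scaling: it was 45.1% here, 31.8% with the RPKM as deposited and 59.9% with upper-quartile scaling, which moved the median of all rows to -0.12 and 0.13, against 0.00 here. Of the 18597 rows, 2225 were called higher and 4774 lower with the RPKM as deposited, and 4444 and 2970 with upper-quartile scaling. With the pairing, 32.6% of all rows were called higher and 33.6% lower. List counts under these settings are to be read beside these totals.

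Large increases outnumbered large decreases. Changes of at least 4-fold were called higher in 501 rows (2.69%) and lower in 90 (0.484%), and changes of at least 8-fold higher in 165 (0.887%) and lower in 6 (0.0323%). Rows called at least 2-fold higher held between 11.8% and 17.7% of the summed RPKM of each stage 10.5 library, against 4.46% to 6.74% of each stage 9 library. Rows called at least 2-fold lower held 1.64% to 2.64% at stage 10.5, against 6.22% to 7.82% at stage 9. In whole-embryo RNA, a change in the number of cells that express a gene and a change in RNA per cell cannot be told apart. As RNA was selected for polyA tails, a change in tails and a change in RNA amount cannot be told apart either. This holds for every list below.

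**Figure D1:**
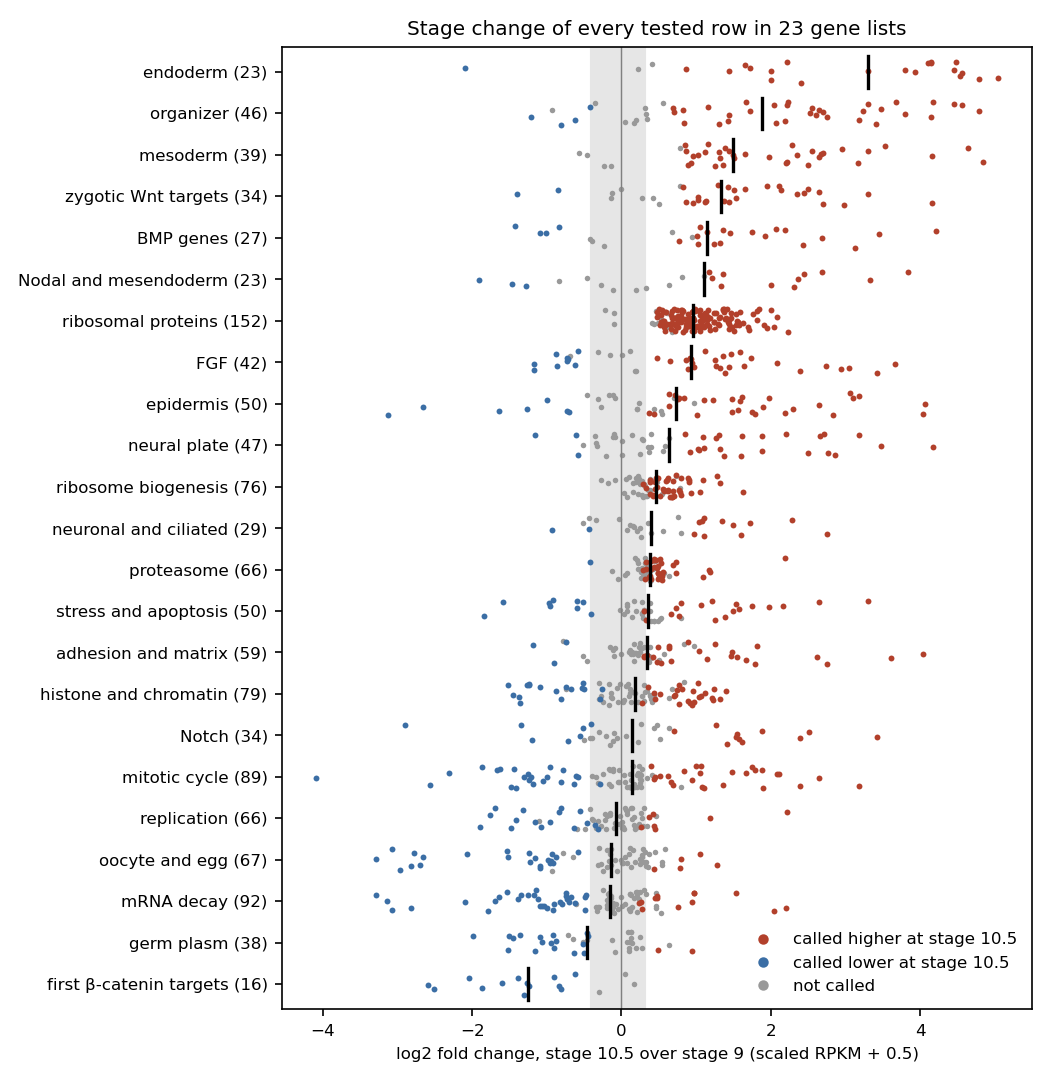
Log2 fold change, stage 10.5 over stage 9, of every tested row in 23 gene lists, with the number of tested rows in brackets; each point is 1 row, black bars are list medians, and the grey band holds the middle 50% of all 18597 tested rows. The endoderm list had the highest median, 3.298, and the list of first β-catenin targets the lowest, -1.25.

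Genes of the Spemann organizer, the dorsal signalling centre that patterns the body axis, were mostly higher at stage 10.5. Of 46 tested rows, out of 55 in the list, 33 rose and 4 fell, beside 16.8% and 20.4% of all rows, with a median log2 fold change of 1.88 against 0.00 over all rows. A row low at stage 9 could pass the filter on low values through stage 10.5 alone, and the counts for the lists cover tested rows only. Some rows stand in several lists, so the counts of different lists are not separate results. Among the secreted antagonists, frzb.S, which encodes a Wnt inhibitor, had 63.1 to 131 RPKM at stage 10.5 (median 83.9), against 7.72, 0.585, 4.71, 5.09 and 1.22 RPKM at stage 9. The groups did not overlap (log2 fold change 4.79 ± 0.45, adjusted p = 1.09e-05). Its homeolog frzb.L rose by 4.46. Cerberus binds Nodal, BMP and Wnt ligands outside the cell, and cer1.S had 59.2 to 115 RPKM at stage 10.5 (median 75.4), against 8.60, 3.86, 10.6, 3.44 and 1.495 RPKM at stage 9. Every stage 10.5 library lay above every stage 9 library (log2 fold change 4.15 ± 0.37, adjusted p = 8.53e-06), and cer1.L rose by 4.56.

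Chordin, the main BMP antagonist of the organizer, was represented by 3 rows matched to chrd, which rose by 2.56, 2.08 and 1.67. The row with the largest change had 35.8 to 69.0 RPKM at stage 10.5 (median 48.8), against 15.9, 4.59, 16.3, 10.95 and 3.60 RPKM at stage 9. Stage 9 replicates 2 and 5 were the lowest of that stage, and the groups did not overlap. Dkk1, a Wnt inhibitor, rose by 1.43 (dkk1.S) and 0.82 (dkk1.L), and follistatin rose by 0.84 (fst.S) and 0.70 (fst.L). Noggin, another BMP antagonist, had 7.47 to 10.9 RPKM at stage 10.5 (median 9.23), against 11.7, 4.82, 11.3, 10.1 and 4.75 RPKM at stage 9. These values overlapped, and nog.L was not called (log2 fold change 0.32 ± 0.23, adjusted p = 0.32).

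Several of the organizer's transcription factors also rose. Goosecoid, a homeobox repressor, had 43.9 to 76.4 RPKM at stage 10.5 (median 59.2), against 21.0, 2.70, 28.05, 15.6 and 3.90 RPKM at stage 9 for gsc.L. The groups were separate (log2 fold change 2.60 ± 0.49, adjusted p = 0.0011), although stage 9 replicates 2 and 5 were far below the other three. The head gene otx2 was matched by 2 rows, which rose by 4.17 and 3.47. The row Xelaev18041108m had 14.4 to 26.8 RPKM at stage 10.5 (median 18.11), against 1.41, 2.16, 2.50, 1.27 and 0.382 RPKM at stage 9. The LIM homeobox gene lhx1 rose by 3.68 (lhx1.S) and 3.42 (lhx1.L), hhex by 3.80 (hhex.L) and 3.298 (hhex.S), and the forkhead gene foxa4 by 3.18 (foxa4.S) and 2.65 (foxa4.L).

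Not all organizer genes were higher at the later stage. For the notochord homeobox gene not, the row not.L had 39.0 to 88.1 RPKM at stage 10.5, against 39.3 to 85.4 RPKM at stage 9. The row not.S had 53.7 to 89.3 RPKM at stage 10.5, against 42.9 to 94.7 RPKM at stage 9. Neither was called (adjusted p = 0.27 and 0.21), and with the pairing both were called higher, at adjusted p = 0.041 and 0.043. For the dorsal BMP ligand admp, admp.S rose by 1.16 and admp.L, at 0.19, was not called; the change in the L to S ratio was -0.97 (limma, adjusted p = 0.00053). For LOC100489393, matched to shisa2, the S copy rose by 2.24 and the L copy fell by 0.42 (change in the ratio -2.66). The row matched to ism1 fell by 1.21, with 25.8 to 40.8 RPKM at stage 10.5, against 68.5 to 104 RPKM at stage 9. With the pairing, 36 organizer rows were higher and 5 lower, beside 32.6% and 33.6% of all rows in that fit.

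The first genes switched on by maternal β-catenin moved the other way. Of 16 tested rows none was called higher and 13 fell (81.2%), beside 16.8% and 20.4% of all rows, with a median of -1.25. Of the 13 gene symbols in the list only 5 were matched: sia1, sia2, nodal3, nodal5 and nodal6. Most have several rows, so the counts are of copies and not of separate genes. Siamois and Twin (sia1 and sia2) are homeobox activators that β-catenin turns on directly in the dorsal blastula. The sia2 row had 0.841 to 5.05 RPKM at stage 10.5 (median 3.04), against 9.67, 11.5, 11.99, 19.7 and 17.1 RPKM at stage 9. The groups were separate (log2 fold change -2.04 ± 0.33, adjusted p = 0.00042). Of 4 rows named for sia1, 2 fell, by 2.51 and 2.60, and Xelaev18019203m, with 5.95 to 22.3 RPKM at stage 10.5, against 9.97 to 15.9 RPKM at stage 9, was not called (adjusted p = 0.92).

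Nodal5 and Nodal6 are Nodal ligands of the blastula's vegetal cells. All 6 nodal5 rows fell, by 0.84 to 1.87, while nodal6.L fell by 1.304 and nodal6.S by 1.27. The nodal5 copy Xelaev18018807m had 0.640 to 3.50 RPKM at stage 10.5 (median 2.29), against 5.77, 5.78, 7.26, 13.2 and 9.39 RPKM at stage 9, with no overlap (log2 fold change -1.61 ± 0.33, adjusted p = 0.0023). Nodal3, a divergent Nodal relative made in the organizer, gave 3 rows, of which 2 fell, by 0.62 and 0.81. The third, Xelaev18018866m, had 17.1 to 25.7 RPKM at stage 10.5, against 13.3 to 27.3 RPKM at stage 9 and was not called (adjusted p = 0.54). These sia and nodal rows are close copies of one another, so reads may have been divided between them, and the level of a single copy is uncertain.

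Across the Nodal pathway and its mesendoderm targets, 11 of 23 rows rose (47.8%) and 3 fell (13%), beside 16.8% and 20.4% of all rows (median 1.11). The 3 rows that fell were foxh1.L, smad2.L and smad2.S, whose products carry the signal inside the cell. Foxh1, the DNA-binding partner of Smad2, had 21.6 to 36.2 RPKM at stage 10.5 (median 27.8), against 112, 127, 108, 108 and 137 RPKM at stage 9 for foxh1.L, with a gap between the groups (log2 fold change -1.90 ± 0.15, adjusted p = 4.68e-06). Smad2 itself fell by 1.28 (smad2.L) and 1.46 (smad2.S). Not all rows for Smads fell: Xelaev18008450m, matched to smad4, rose by 2.68, with no overlap between the stages. The other smad4 matches and the smad3 match were not called without the pairing. The ligands nodal1.L and nodal2.L rose by 1.33 and 1.36, and the Nodal inhibitor lefty rose by 1.21 (lefty.S) and 1.17 (lefty.L). The libraries of the stages overlapped for all 4 of these rows.

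Homeobox and T-box target genes were also higher. Mixer, which acts with Smads on endoderm genes, had 125 to 195 RPKM at stage 10.5 (median 163), against 27.6, 2.63, 26.8, 18.5 and 5.43 RPKM at stage 9 for mixer.L. All 6 stage 10.5 libraries lay above the stage 9 libraries (log2 fold change 3.84 ± 0.49, adjusted p = 7.23e-05). The related mix1.L had 205 to 325 RPKM at stage 10.5 (median 252), against 90.8, 17.97, 115, 73.9 and 34.2 RPKM at stage 9 (log2 fold change 2.37), and the T-box gene eomes.S had 94.9 to 114 RPKM at stage 10.5 (median 103), against 47.2, 7.07, 51.2, 26.4 and 7.88 RPKM at stage 9 (log2 fold change 2.44). In all 3 rows stage 9 replicates 2 and 5 were the lowest. With the pairing, 6 rows of the list were lower, and with RPKM as deposited, or without stage 10.5 replicate 4, there were 5, against 3.

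The endoderm list had the largest median change of the 23 lists (3.298). Of its 23 tested rows, out of 36 in the list, 20 were higher (87%) and 1 lower (4.35%). The shares of all rows were 16.8% and 20.4%. This list includes the frzb, cer1 and hhex rows named above with the organizer. GATA factors are zinc-finger activators of the endoderm programme. The gene gata4.S had 18.5 to 40.6 RPKM at stage 10.5 (median 25.6), against 0.983, 0.0169, 0.966, 0.305 and 0.0251 RPKM at stage 9. It was below 1 RPKM in every stage 9 library, with a wide gap to stage 10.5 (log2 fold change 5.04 ± 0.30, adjusted p = 1.49e-06). Its homeolog gata4.L rose by 4.11, gata6 by 4.53 (gata6.L) and 4.15 (gata6.S), and the 2 rows matched to gata5 by 3.94 and 2.41. Sox17a, a Sox factor central to endoderm identity, was already abundant at stage 9: sox17a.L had 65.3 to 144 RPKM at stage 10.5 (median 120.0), against 36.6, 14.2, 50.6, 40.2 and 21.5 RPKM at stage 9. It rose by 2.002. The related sox7.L had 2.43 to 10.5 RPKM at stage 10.5 (median 4.23), against 34.3, 21.7, 33.8, 15.5 and 15.3 RPKM at stage 9 and was the list's only call in the other direction (log2 fold change -2.0902).

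Mesoderm genes had 39 tested rows, out of 59 in the list. Of these 34 rose (87.2%) and none was called lower, beside 16.8% and 20.4% of all rows (median 1.496). Several rows that rose, among them those of cdx2, cdx4 and evx1, were below 1 RPKM in every stage 9 library. Such rows passed the filter through stage 10.5 alone, so the share of rows that rose is partly set by the filter. Brachyury, the T-box factor of the whole mesodermal ring, is listed as t, and t.S had 42.3 to 138 RPKM at stage 10.5 (median 93.3), against 6.96, 0.780, 8.26, 3.70 and 1.57 RPKM at stage 9. The groups were well apart (log2 fold change 4.65 ± 0.46, adjusted p = 1.43e-05), and t.L rose by 4.84. The caudal gene cdx1.S, which acts in posterior mesoderm, rose by 4.16, with 5.38 to 22.0 RPKM at stage 10.5, against 0.0322 to 0.564 RPKM at stage 9. The presomitic gene mespb rose by 3.53 (mespb.S) and 2.96 (mespb.L). The ventrolateral ligand wnt8a.L had 43.6 to 102 RPKM at stage 10.5, against 6.81 to 27.0 RPKM at stage 9 and rose by 2.21. For the muscle determination gene myod1, myod1.S rose by 1.496, while myod1.L had 0.676 to 3.41 RPKM at stage 10.5, against 2.11 to 4.10 RPKM at stage 9 and was not called (adjusted p = 0.15). The change in the L to S ratio of myod1 was -2.06 (limma, adjusted p = 1e-05). With the pairing 3 rows were called lower, among them myod1.L (adjusted p = 0.027), and without stage 10.5 replicate 4 there was 1.

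BMP signalling opposes the organizer on the ventral side, and its ligands, feedback inhibitors and targets are transcribed together. Of 27 rows 18 rose (66.7%) and 4 fell (14.8%), beside 16.8% and 20.4% of all rows (median 1.14). Among the targets, the 2 rows matched to gata2 rose by 4.22 and 3.45, and msx1.L rose by 3.13. By contrast id2 fell by 0.84 (id2.L) and 1.09 (id2.S). The feedback inhibitor rows smad6.L (-0.24) and smad6.S (-0.40) were not called, although with the pairing smad6.S was (adjusted p = 0.023). Sizzled, a secreted inhibitor of chordin-cleaving proteases, had 10.9 to 57.5 RPKM at stage 10.5 (median 51.4), against 14.1, 3.65, 7.03, 12.3 and 2.15 RPKM at stage 9 for szl.L. Stage 10.5 replicate 1 was at 10.9 RPKM, within the stage 9 range, while the other 5 exceeded it (log2 fold change 2.68 ± 0.50, adjusted p = 0.001). The ligand bmp4 rose by 1.24 (bmp4.L) and 1.02 (bmp4.S), whereas bmp2 fell by 1.02 (bmp2.L) and 1.42 (bmp2.S). The row bmp2.S had 4.30 to 6.77 RPKM at stage 10.5 (median 6.03), against 18.4, 20.1, 16.01, 16.96 and 16.9 RPKM at stage 9, with no overlap.

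Targets of the later, zygotic Wnt signal rose in 25 of 34 rows (73.5%) and fell in 2 (5.88%), beside 16.8% and 20.4% of all rows (median 1.33). Rows of cdx1, cdx2, cdx4, tbx6, myf5 and msgn1 in this list are also counted in the mesoderm list. The transcription factor sp5l.S had 163 to 238 RPKM at stage 10.5 (median 222), against 69.3, 21.2, 64.8, 47.5 and 25.5 RPKM at stage 9. The groups did not overlap (log2 fold change 2.45 ± 0.28, adjusted p = 3.35e-05). The nuclear effector lef1.L was close to 0 at stage 9, with 1.81 to 4.94 RPKM at stage 10.5 (median 3.96), against 0.0326, 0.00695, 0.0201, 0 and 0.0311 RPKM at stage 9 (log2 fold change 2.99). The feedback inhibitors znrf3.L and nkd1.L were the 2 rows that fell, by 1.41 and 0.85, while their homeologs znrf3.S (0.50) and nkd1.S (-0.13) were not called (adjusted p = 0.0013 and 0.047 with the pairing). The change in the L to S ratio was called for znrf3 (-1.91, adjusted p = 0.00033) and not for nkd1 (-0.72, adjusted p = 0.076).

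In the ectoderm, genes of the neural plate rose in 23 of 47 rows (48.9%) and fell in 3 (6.38%), beside 16.8% and 20.4% of all rows (median 0.64). The homeobox gene irx3.L had 7.99 to 22.7 RPKM at stage 10.5 (median 15.4), against 1.68, 1.56, 1.26, 1.29 and 0.803 RPKM at stage 9 (log2 fold change 3.18 ± 0.23, adjusted p = 3.82e-06). The related irx1.L rose by 2.21, and the zinc-finger gene sall1 by 2.72 (sall1.L) and 2.66 (sall1.S). Of the 2 rows matched to sox3, a pan-neural Sox factor, Xelaev18042169m had 305 to 508 RPKM at stage 10.5, against 389.6 to 498 RPKM at stage 9. Xelaev18038842m had 90.8 to 261 RPKM at stage 10.5, against 199.9 to 296 RPKM at stage 9, and neither was called. Geminin, an inhibitor of DNA re-replication that also acts in neural induction, fell by 1.16 for gmnn.L, with 74.5 to 129 RPKM at stage 10.5, against 197 to 267 RPKM at stage 9. With the pairing 31 rows were higher and 6 lower, beside 32.6% and 33.6% of all rows in that fit. With RPKM as deposited 5 were lower.

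Epidermal genes rose in 29 of 50 rows (58%) and fell in 7 (14%), beside 16.8% and 20.4% of all rows (median 0.74). E-cadherin, the cell adhesion molecule of epithelia, had 4.76 to 22.1 RPKM at stage 10.5 (median 18.3), against 0.667, 0.427, 1.11, 0.353 and 0.0432 RPKM at stage 9 for cdh1.S (log2 fold change 4.04 ± 0.38, adjusted p = 1.16e-05). The keratin gene krt12.S had 0.160 to 40.8 RPKM at stage 10.5 (median 11.4), against 0.0658, 0.0336, 0.130, 0 and 0 RPKM at stage 9. Stage 10.5 replicate 1, at 0.160 RPKM, was barely above the stage 9 libraries, and the other 5 stood far above them (log2 fold change 4.07 ± 0.78, adjusted p = 0.0012). The homeobox genes dlx3.S and dlx5.L rose by 3.1001 and 2.84, and both rows matched to tfap2a rose, by 1.98 and 1.57. Foxi2, a maternal forkhead factor that activates ectoderm genes in Xenopus, moved the other way. The row foxi2.S had 5.53 to 17.5 RPKM at stage 10.5 (median 13.1), against 106, 112, 89.1, 104 and 177 RPKM at stage 9 (log2 fold change -3.13 ± 0.29, adjusted p = 1.08e-05), and foxi2.L fell by 2.66. The keratin gene krt8 was already abundant at stage 9, and krt8.L, with 201 to 391 RPKM at stage 10.5, against 205 to 294 RPKM at stage 9, rose by 0.44.

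FGF ligands, receptors and feedback regulators rose in 26 of 42 rows (61.9%) and fell in 9 (21.4%), beside 16.8% and 20.4% of all rows (median 0.93). The transmembrane modulator flrt3.S had 23.6 to 32.5 RPKM at stage 10.5 (median 26.8), against 4.82, 0.385, 4.78, 2.49 and 0.485 RPKM at stage 9, without overlap (log2 fold change 3.66 ± 0.43, adjusted p = 4.18e-05). Of the ligands fgf3.S rose by 3.05 and fgf8 by 0.94 (fgf8.L) and 0.89 (fgf8.S). The receptors differed in direction: fgfr2 rose by 2.95 (fgfr2.S) and 1.74 (fgfr2.L), fgfr4 by 1.47 (fgfr4.S) and 0.97 (fgfr4.L), while fgfr1 fell by 0.58 (fgfr1.L) and 0.86 (fgfr1.S). The ERK phosphatase gene dusp6.S rose by 2.0898, and dusp4.L fell by 1.17.

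Of 34 Notch pathway rows 11 rose (32.4%) and 7 fell (20.6%), beside 16.8% and 20.4% of all rows, with a median of 0.15. With upper-quartile scaling 13 were higher and 5 lower. The Delta-type ligand dlc.L had 11.7 to 39.2 RPKM at stage 10.5 (median 30.9), against 1.88, 1.98, 1.46, 3.82 and 3.48 RPKM at stage 9. Replicate 1 was the lowest stage 10.5 library, and the groups were still apart (log2 fold change 3.42 ± 0.31, adjusted p = 9.47e-06). Another ligand gene, dll1.S, rose by 2.39, and the receptor gene notch1.L rose by 2.51. Rows matched to hes1, a family of Notch-responsive repressors, moved both ways. Xelaev18019217m rose, with 51.0 to 91.6 RPKM at stage 10.5, against 16.9 to 30.6 RPKM at stage 9. Xelaev18019219m fell, with 7.38 to 23.1 RPKM at stage 10.5, against 77.4 to 167 RPKM at stage 9. With the pairing 16 Notch rows were called higher and 12 lower, beside 32.6% and 33.6% of all rows in that fit.

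**Figure D2:**
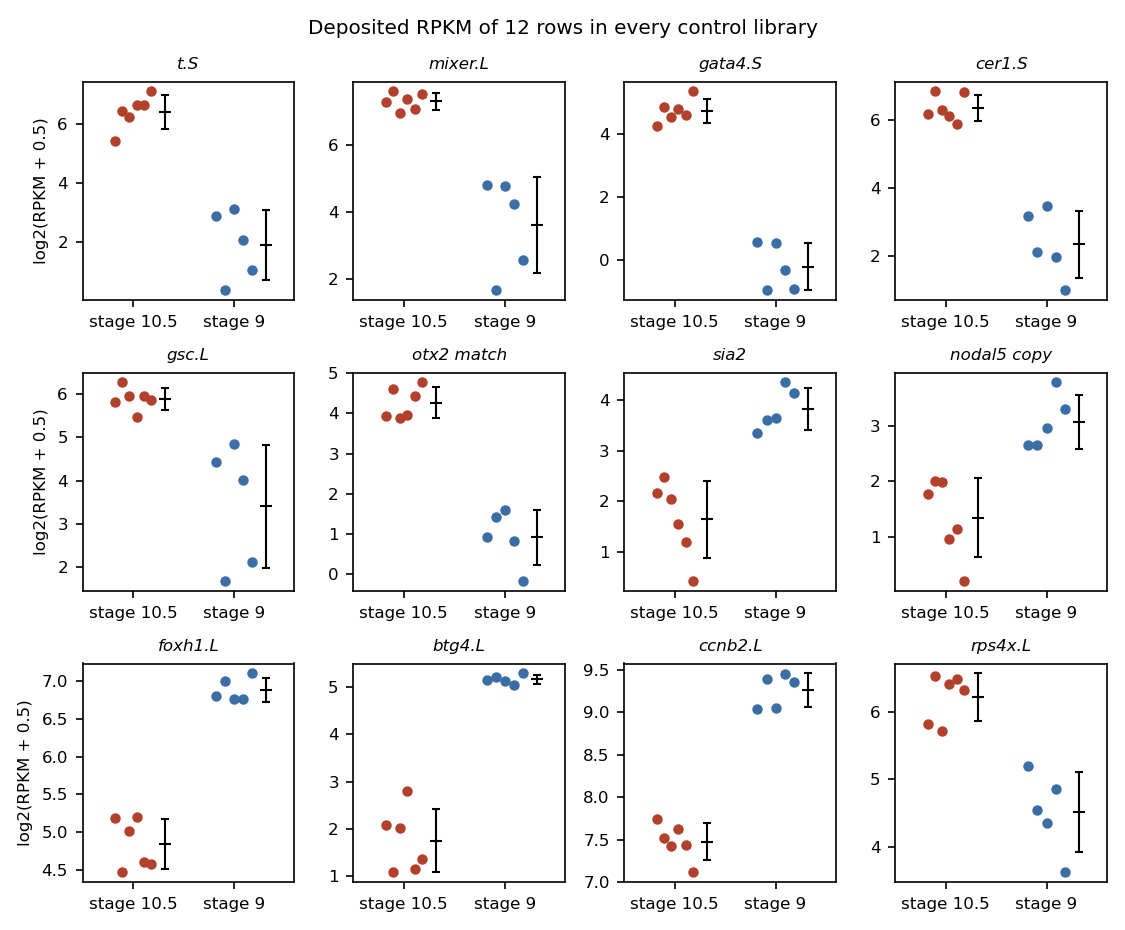
Deposited RPKM of 12 rows in every control library as log2(RPKM + 0.5), with stage 10.5 (6 libraries, red) left of stage 9 (5 libraries, blue) and mean ± SD as black bars; the vertical scales differ between panels and do not start at 0. Developmental regulators such as gata4.S were higher at stage 10.5, and sia2, the nodal5 copy, foxh1.L, btg4.L and ccnb2.L were lower.

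Stage 9 libraries differed among themselves in these developmental lists. The median log2 deviation of organizer rows from their mean over the 11 libraries was -1.47 and -1.55 in stage 9 replicates 2 and 5, against -0.38 to -0.79 in the other 3. Endoderm rows had medians of -2.17, -1.90 and -1.96 in replicates 2, 4 and 5. Among stage 10.5 libraries, replicate 1 had the lowest median in 15 of the 23 lists, and rows called at least 2-fold higher deviated by 0.35 in it, against 0.62 to 1.15 in the other 5. The epidermis median of replicate 1 was -0.49, within the stage 9 range of -0.68 to -0.30. Its Notch median, -0.24, lay below the stage 9 range of -0.20 to -0.07. Its mitotic median, -0.16, lay below the stage 9 range of -0.10 to 0.06. Its organizer and endoderm medians, both 0.70, lay above every stage 9 library. What set these libraries apart was not tested. Without stage 10.5 replicate 1 there were 7083 calls.

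**Figure D3:**
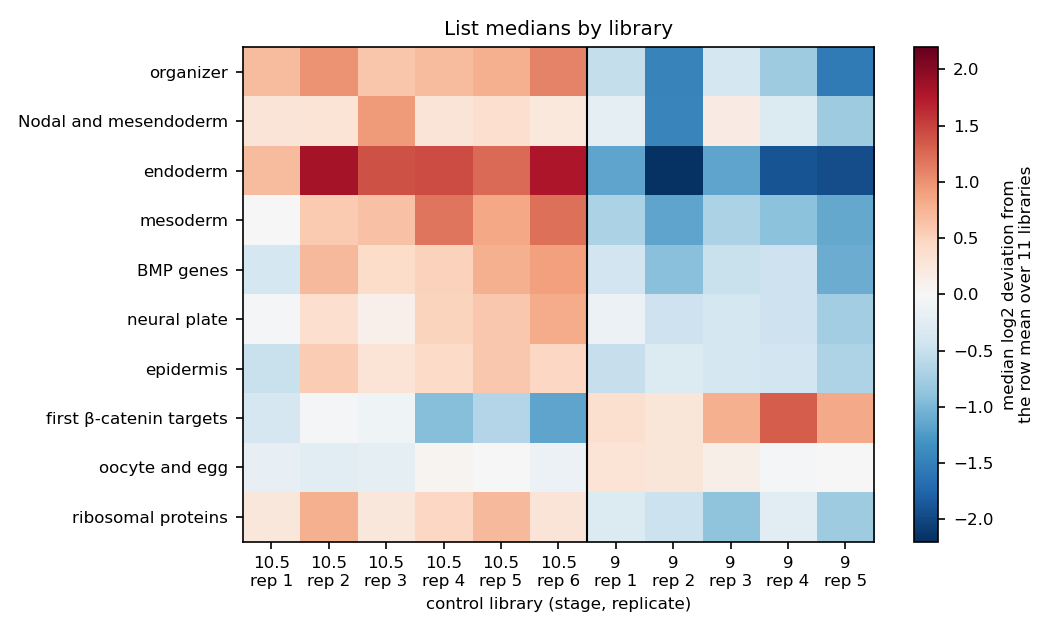
Median log2 deviation of the tested rows of 10 lists from each row's mean over the 11 libraries, with stage 10.5 libraries left of the black line and stage 9 libraries right of it. Stage 10.5 replicate 1 is the palest of its stage in several zygotic lists, and in the epidermis list it lies within the stage 9 range, at -0.49. Stage 9 replicates 2 and 5 are the lowest in the organizer list.

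Among RNAs stored in the egg, a minority fell, some of them steeply. Of 67 rows for oocyte and egg genes, 22 fell (32.8%) and 5 rose (7.46%), beside 20.4% and 16.8% of all rows. By at least 2-fold 15 fell, beside 7.22% of all rows, while the list median was only -0.14. With upper-quartile scaling 14 were higher and 21 lower. With the pairing 22 were higher and 31 lower, beside 32.6% and 33.6% of all rows in that fit. Btg4, an adaptor that recruits the deadenylase to maternal mRNA in mouse oocytes, had 1.61 to 6.43 RPKM at stage 10.5 (median 2.80), against 35.0, 36.7, 34.3, 32.7 and 38.6 RPKM at stage 9 for btg4.L. The groups were far apart (log2 fold change -3.29 ± 0.26, adjusted p = 5.48e-06), and btg4.S fell by 3.08. Cpeb1, which controls cytoplasmic polyadenylation of stored mRNA, had 2.46 to 3.71 RPKM at stage 10.5 (median 3.51), against 18.8, 51.6, 17.03, 30.5 and 65.2 RPKM at stage 9 for cpeb1.L (log2 fold change -2.97 ± 0.32, adjusted p = 2.33e-05). The meiotic kinase gene mos.L fell by 1.15, and fbxo43-like.L and fbxo43-like.S, copies of an inhibitor of the anaphase-promoting complex in the egg, fell by 2.70 and 2.77. The rows that rose were 3 matched to ybx1 and both copies of the polyA-binding protein gene pabpc1, which cells at later stages also use.

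Germ plasm is the vegetal cytoplasm inherited by the future germ cells. Germ plasm and vegetal RNAs fell in 17 of 38 rows (44.7%) and rose in 2 (5.26%), beside 20.4% and 16.8% of all rows (median -0.46). Dead end, an RNA-binding protein of germ cells, had 4.14 to 8.75 RPKM at stage 10.5 (median 5.42), against 20.6, 46.7, 16.5, 31.1 and 28.8 RPKM at stage 9 for dnd1.L, with no overlap (log2 fold change -1.995 ± 0.25, adjusted p = 6.67e-05). The RNA-binding gene bicc1 fell by 1.37 (bicc1.L) and 1.45 (bicc1.S), and grip2.L by 1.07. The germ cell helicase ddx4.L rose slightly (log2 fold change 0.48 ± 0.10, adjusted p = 0.0018), and the maternal ligand wnt11b.L, which is also transcribed in the gastrula, rose by 0.94. With the pairing 8 rows were higher and 21 lower, beside 32.6% and 33.6% of all rows in that fit.

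Factors of mRNA decay fell in 32 of 92 rows (34.8%) and rose in 13 (14.1%), beside 20.4% and 16.8% of all rows (median -0.15). Members of the zfp36 family, which bind AU-rich elements, went in both directions. The row Xelaev18024267m, matched to zfp36l1, had 4.02 to 10.6 RPKM at stage 10.5 (median 8.51), against 72.0, 91.1, 78.1, 54.0 and 90.9 RPKM at stage 9 (log2 fold change -3.14 ± 0.23, adjusted p = 3.82e-06). By contrast zfp36.S rose by 2.21 and zfp36l2 by 0.97 (zfp36l2.L) and 0.97 (zfp36l2.S). The antiproliferative gene btg1.L, a relative of btg4, rose by 2.05, with 111 to 158 RPKM at stage 10.5, against 23.6 to 56.2 RPKM at stage 9. Among genes of small RNA silencing, ago1 fell by 1.64 (ago1.L) and 1.39 (ago1.S) and tnrc6c-like.S by 1.25, while ago2.L (0.53) and ago2.S (0.47) were not called. With RPKM as deposited 8 were higher and 34 lower, and with upper-quartile scaling 23 were higher and 30 lower. With the pairing 20 were higher and 39 lower, beside 32.6% and 33.6% of all rows in that fit.

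The embryonic cell cycle lengthens and gains checkpoints after the midblastula transition. Of 89 mitotic rows 26 rose (29.2%) and 23 fell (25.8%), beside 16.8% and 20.4% of all rows (median 0.14), and members of the same family went in opposite directions. Cyclins B1 and B2, which drive entry into mitosis, fell. The row ccnb2.L had 138 to 213 RPKM at stage 10.5 (median 178), against 525, 669, 528, 701 and 656 RPKM at stage 9. The groups did not overlap (log2 fold change -1.63 ± 0.12, adjusted p = 3.93e-06). The 2 rows matched to ccnb1 fell by 1.88 and 1.67, and LOC394448.L, another row matched to ccnb2, fell by 4.09. Cyclin B3 and cyclin D1 rose instead. The row ccnb3.S had 18.7 to 91.1 RPKM at stage 10.5 (median 61.4), against 9.44, 4.87, 7.25, 5.65 and 4.42 RPKM at stage 9 (log2 fold change 3.18 ± 0.36, adjusted p = 2.93e-05), and ccnd1 rose by 2.65 (ccnd1.L) and 1.75 (ccnd1.S).

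The Cdk1 regulators also went both ways. The 2 rows matched to the inhibitory kinase wee1 rose by 1.90 and 1.05, while the 2 rows matched to wee2, its oocyte counterpart, fell by 0.96 and 0.58. The activating phosphatase cdc25a fell by 1.05 (cdc25a.L) and 1.26 (cdc25a.S), and cdc25b rose by 0.94 (cdc25b.L) and 1.11 (cdc25b.S). The checkpoint kinase gene chek1 fell by 0.79 (chek1.L) and 1.42 (chek1.S), and the transcription factor gene e2f1 fell by 1.49 (e2f1.L) and 2.31 (e2f1.S). With the pairing 41 mitotic rows were higher and 25 lower, beside 32.6% and 33.6% of all rows in that fit. With RPKM as deposited 18 were higher and 24 lower, and with upper-quartile scaling 35 and 19.

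DNA replication genes fell in 16 of 66 rows (24.2%) and rose in 7 (10.6%), beside 20.4% and 16.8% of all rows (median -0.08). The subunit Mcm3 of the replicative helicase has a maternal form and, in Xenopus, a zygotic form. The zygotic zmcm3.L had 28.8 to 39.5 RPKM at stage 10.5 (median 35.2), against 11.3, 6.37, 12.6, 7.95 and 3.75 RPKM at stage 9 (log2 fold change 2.22 ± 0.24, adjusted p = 2.31e-05). The maternal mcm3.L had 19.0 to 41.8 RPKM at stage 10.5 (median 26.6), against 75.5, 51.6, 80.2, 59.99 and 42.8 RPKM at stage 9 (log2 fold change -0.95 ± 0.21, adjusted p = 0.0034). The stage 9 libraries thus all held more mcm3.L than zmcm3.L per length, whereas in stage 10.5 libraries the ranges overlapped. Among origin recognition and initiation genes, orc1.L fell by 1.48, orc4.L by 1.90, cdc7.L by 1.70 and mcm10.L by 1.32. With RPKM as deposited 3 were higher and 20 lower, and with upper-quartile scaling 9 and 11. With the pairing 18 were higher and 27 lower, beside 32.6% and 33.6% of all rows in that fit.

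Histone and chromatin genes rose in 25 of 79 rows (31.6%) and fell in 17 (21.5%), beside 16.8% and 20.4% of all rows (median 0.18). Among the rows that rose were several abundant chromosomal proteins. The row Xelaev18005411m, matched to hmgb2, had 1503 to 2254 RPKM at stage 10.5 (median 1896), against 946, 966, 1046, 1127 and 884 RPKM at stage 9 (log2 fold change 1.06), hmgb3.L rose by 1.31, and h2afz, a histone H2A variant, by 0.95 (h2afz.L) and 0.77 (h2afz.S). Among chromatin enzymes, dnmt1, the maintenance DNA methyltransferase, fell by 1.36 (dnmt1.L) and 1.24 (dnmt1.S), hdac2 by 1.52 (hdac2.L) and 1.46 (hdac2.S), and the histone demethylase gene kdm5b by 0.81 (kdm5b.L) and 1.37 (kdm5b.S), while hdac1 rose by 0.43 (hdac1.L) and 0.44 (hdac1.S). The oocyte linker histone h1foo.L had 42.7 to 136 RPKM at stage 10.5 (median 101), against 236, 248, 249, 106 and 128 RPKM at stage 9 and fell by 0.88 (adjusted p = 0.047). Replication-dependent histone mRNA lacks a polyA tail, so polyA selection bears on this list. Without stage 10.5 replicate 2 or stage 9 replicate 3, 11 rows were lower, and with RPKM as deposited 22 were higher and 23 lower. With upper-quartile scaling 32 were higher and 11 lower.

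Cytosolic ribosomal proteins rose as a group. Of 152 tested rows 141 were higher (92.8%) and none was called lower, beside 16.8% and 20.4% of all rows, with a median of 0.96. In 105 the libraries of the stages did not overlap, beside 24.0% of all rows. Their summed RPKM was 7666 to 10536 at stage 10.5, against 4261 to 6170 at stage 9. The row rps4x.L had 52.2 to 92.1 RPKM at stage 10.5 (median 82.3), against 36.3, 22.8, 19.9, 28.4 and 11.8 RPKM at stage 9. Replicate 5 was the lowest of stage 9, and the groups were apart (log2 fold change 1.85 ± 0.25, adjusted p = 0.0001). The largest change was in rpl8.L, which rose by 2.23, with 15.0 to 32.8 RPKM at stage 10.5, against 2.58 to 7.65 RPKM at stage 9. The direction held with RPKM as deposited (125 higher, none lower) and with upper-quartile scaling (145 higher, none lower). The translation elongation factor row Xelaev18004064m, matched to eef1a1, had 1171 to 2197 RPKM at stage 10.5 (median 1845), against 577, 541, 748, 572 and 344 RPKM at stage 9 and rose by 1.85.

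Calls of higher rows were more frequent among short genes in general. In 5 equal bins of gene length, shortest to longest, the median log2 fold change of all rows was 0.22, 0.11, 0.04, -0.07 and -0.23, and the share called higher ran from 25.6% to 6.96%. Rows of the same length as the ribosomal proteins (542.75 to 1126.5 bases, the middle 50% of that list) had a median of 0.19, and 22.1% of 2052 were called higher. Of 598 rows that also had a mean of at least 20.4 RPKM, 35.3% were called higher, with a median of 0.33. After subtraction of the median of rows in the same of 10 equal bins of length, the ribosomal proteins' median was 0.75. The part that length plays in the result was not tested further.

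Ribosome assembly factors rose in 42 of 76 rows (55.3%) and none was called lower, beside 16.8% and 20.4% of all rows (median 0.46). The small-subunit processing factor utp15.S had 7.52 to 14.2 RPKM at stage 10.5 (median 10.8), against 5.78, 2.36, 2.69, 6.89 and 1.57 RPKM at stage 9 (log2 fold change 1.62 ± 0.31, adjusted p = 0.0012), and fibrillarin, the nucleolar RNA methyltransferase, rose by 0.80 (fbl.L) and 0.55 (fbl.S). With RPKM as deposited 26 assembly factors were higher and 1 lower. With the pairing 66 were higher and 2 lower, and without stage 10.5 replicate 1 or stage 9 replicate 5, 1 was lower. Proteasome subunits rose in 32 of 66 rows (48.5%) and fell in 1 (1.52%), beside the same shares of all rows (median 0.38). The core particle subunit psma6.S, with 6.33 to 16.1 RPKM at stage 10.5, against 1.68 to 2.97 RPKM at stage 9, rose by 2.19. The count depended on settings: it was 14 higher with RPKM as deposited, 20 without stage 9 replicate 2 and 60 with the pairing. The lower call, psmc2.S at -0.42, was lost without stage 9 replicate 2 or 3.

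Adhesion and matrix genes rose in 24 of 59 rows (40.7%) and fell in 3 (5.08%), beside 16.8% and 20.4% of all rows (median 0.34). Hyaluronan synthases, which make a matrix polysaccharide, were among the rows that rose. The row Xelaev18019732m, matched to has1, had 509.7 to 1429.8 RPKM at stage 10.5 (median 1065), against 235, 134, 261, 242 and 91.8 RPKM at stage 9 (log2 fold change 2.62), and has2 rose by 3.61 (has2.S) and 1.82 (has2.L). The protocadherin pcdh1 fell by 0.90 (pcdh1.L) and 0.75 (pcdh1.S), and the integrin gene itga5.S by 1.18. With the pairing 38 rows were higher and 7 lower, and without stage 9 replicate 1, 5 were lower.

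Of 68 rows for genes of neurons and ciliated cells, cell types that appear after gastrulation, only 29 passed the filter on low values. Of these, 11 rose (37.9%) and 2 fell (6.9%), beside 16.8% and 20.4% of all rows. The ciliogenesis factor foxj1.S had 2.63 to 4.64 RPKM at stage 10.5, against 0.753 to 2.85 RPKM at stage 9 and rose by 0.97. Several other rows that rose were matched to the tubulin gene tuba1a, with the largest change, 2.76, in LOC100497528.S. The rows that fell were Xelaev18010956m, matched to mcidas, by 0.93 and rfx2.S by 0.44. The rows ccno.L, ccno.S and spag6.S were not called. With the pairing 4 rows were lower, and with upper-quartile scaling 1. Stress, unfolded-protein and p53 genes rose in 18 of 50 rows (36%) and fell in 9 (18%), beside 16.8% and 20.4% of all rows (median 0.35). The unfolded-protein transcription factor xbp1 rose by 2.64 (xbp1.S) and 2.16 (xbp1.L), and the constitutive chaperone hspa8.S rose by 1.75, with 382 to 642 RPKM at stage 10.5, against 105 to 198 RPKM at stage 9. The endoplasmic reticulum chaperone hspa5 fell by 0.40 (hspa5.L) and 0.52 (hspa5.S), and caspase 9 fell by 1.59 for casp9.S. With the pairing 30 were higher and 9 lower, beside 32.6% and 33.6% of all rows in that fit.

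Markers of adult and later tissues were used to look for RNA of other cell types, and not all of their rows were low. Erythroid markers had 5 tested rows of 16, with 0 higher and 1 lower and a summed RPKM of 6.82 to 9.78 at stage 10.5, against 14.4 to 18.8 at stage 9. Skeletal muscle markers had 3 tested rows, adult liver 4, and macrophage and leukocyte 1, and none of them was called without the pairing. Their summed RPKM stayed between 1.603 and 12.6 in every library. With the pairing 1 row of each of these sets was called higher, beside 32.6% of all rows in that fit. They were ckm.L (adjusted p = 0.014), a row matched to ttr (adjusted p = 0.0017) and the row matched to cd74 (adjusted p = 0.021). Ovarian follicle markers had 2 tested rows, of which 1 fell, and summed to 21.8 to 29.4 RPKM at stage 10.5, against 44.9 to 56.2 RPKM at stage 9. The part of such RNA in the results was not tested.

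Among the largest changes were genes outside these lists. The row gatm.L, which encodes a creatine synthesis enzyme, had 74.4 to 169 RPKM at stage 10.5 (median 132), against 7.90, 1.57, 7.11, 3.71 and 0.604 RPKM at stage 9. It had the largest increase among the named rows (log2 fold change 5.19 ± 0.46, adjusted p = 8.21e-06). The zinc-finger gene osr2 rose by 4.72 (osr2.L) and 4.49 (osr2.S), and the muscle glycogen phosphorylase gene pygm.S rose by 4.76, with 36.7 to 67.3 RPKM at stage 10.5, against 0.231 to 4.39 RPKM at stage 9. In 6 rows every stage 10.5 library was at 1 RPKM or more and every stage 9 library below 0.1. They were lef1.L, tmem150b.L, tmem150b.S, capn8.L, spns2.S and an unnamed row, Xelaev18004073m. No row had the reverse pattern. Of the most abundant rows that rose at least 2-fold, hnrnpa1.L, an RNA-binding protein of pre-mRNA, had 739.6 to 1464 RPKM at stage 10.5, against 361 to 549 RPKM at stage 9, and the acidic nuclear phosphoprotein gene anp32c.S had 1042 to 1412 RPKM at stage 10.5, against 515 to 652 RPKM at stage 9.

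The changes of homeologous copies were correlated, and many pairs were called in 1 copy alone. Both copies were tested in 3707 pairs, and their log2 fold changes correlated across pairs (Pearson r = 0.75, Spearman correlation 0.73, a description across genes, which are not independent). In these pairs 42.5% of L copies and 39.8% of S copies were called. Both copies were called in 963 pairs, in the same direction in 937, with 389 higher and 548 lower. In 1124 pairs only 1 copy was called. The difference between the copies' changes was tested itself, as the change in the L to S ratio: 652 pairs were called (17.6%), 361 toward the L copy and 291 toward the S copy, and 1789 were called with the pairing. In 173 of the 652 the more abundant copy switched between the stages. Reads that fit both copies could have been divided by the authors' counting, which would affect the copies unequally, so the ratio of close copies is uncertain.

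The named pairs show the range. For cyclin G1, a p53 target, ccng1.L had 7.02 to 27.5 RPKM at stage 10.5 (median 11.96), against 1.11, 0.954, 3.28, 0.763 and 0.339 RPKM at stage 9, and ccng1.S had 4.57 to 13.1 RPKM at stage 10.5 (median 5.42), against 23.1, 31.6, 15.6, 29.8 and 40.4 RPKM at stage 9. The L copy rose by 3.31 and the S copy fell by 1.84, a change in the ratio of 5.15 on the log2 scale (adjusted p = 9.82e-05). For pygm the S copy rose by 4.76 and the L copy, with 0.719 to 1.91 RPKM at stage 10.5, against 0.505 to 1.28 RPKM at stage 9, was not called (change in the ratio -4.27; adjusted p = 0.0028 for the L copy with the pairing). For ckap4 the S copy rose by 3.51 and the L copy by 0.64 (change in the ratio -2.87). The vesicle GTPase gene rab34.L rose by 2.79, and rab34.S, at -0.39, was not called (change in the ratio 3.18; adjusted p = 0.01 for the S copy with the pairing). In 26 pairs both copies were called in opposite directions, and the ratio was called in all 26. The translation factor gene eif5a was among them, with a change in the ratio of 1.72.

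**Figure D4:**
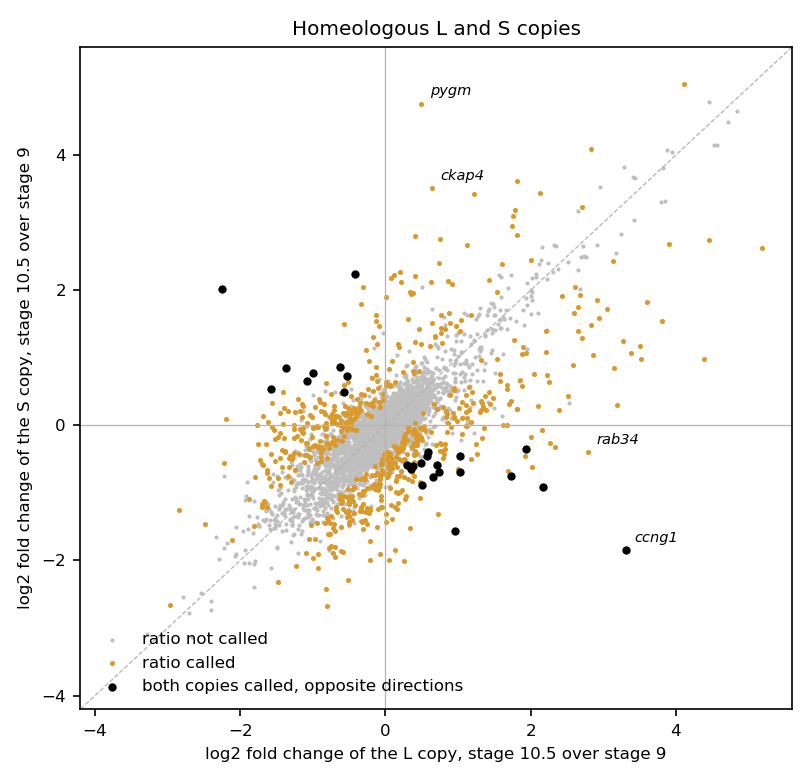
Log2 fold change, stage 10.5 over stage 9, of the S copy (vertical axis) against the L copy (horizontal axis) for 3707 homeologous pairs; orange points are pairs whose ratio was called, black points the 26 pairs with both copies called in opposite directions, and the dashed line marks equal change. Most points follow the line, and ccng1 lies at the lower right, with the L copy higher and the S copy lower at stage 10.5.

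The labels tie each control library to treated libraries of the same batch, which splits the controls into a pair of sets that share no library. One set, of controls for β-catenin morpholino, LiCl and Siamois embryos, held stage 10.5 replicates 1 to 3 and stage 9 replicates 4 and 5. The other, of controls for Wnt8 and Cerberus embryos, held stage 10.5 replicates 4 to 6 and stage 9 replicates 1 to 3. Fitted alone, the Wnt8 and Cerberus set called 2905 rows with at least 2-fold (16.1%), of which 2766 could be fitted in the other set. There 2757 had the same direction (99.7%), and 1485 were called in it (53.7%, against 10.4% of all rows called in that set). The other set called 1591 such rows (9.1%), of which 1574 could be fitted in the first, where 1571 had the same direction, and 1479 were called (94.0%, against 34.6% of all rows). A difference in stage change between the sets was called for no row: limma's interaction term called 0 rows, and 413 (2.22%) had an unadjusted p below 0.05. With the pairs described next as a block, it again called 0 of 18514 rows, and 2865 (15.5%) had an unadjusted p below 0.05.

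Some control libraries also matched across the stages. The numbers of the Wnt8, Cerberus and Siamois libraries, where a treatment and number occur at both stages, name 5 pairs of controls and leave stage 10.5 replicate 1 without a partner. In the β-catenin morpholino, LiCl and Siamois set the labels conflict. By the numbers in the sample titles, morpholino 1 and LiCl 1 name stage 10.5 replicate 1 with stage 9 replicate 4, whose deviations correlated at 0.01. Morpholino 2 names stage 10.5 replicate 2 with stage 9 replicate 5, at -0.13. The column headings of the deposited tables number some of these libraries differently. By the headings, morpholino 1 names stage 10.5 replicate 2 with stage 9 replicate 4, a pair used. LiCl 2 in the headings names stage 10.5 replicate 1 with stage 9 replicate 5, at 0.11, which is not. The Siamois numbers were used in that set, a choice made after seeing the data, while the 3 pairs of the Wnt8 and Cerberus set had no conflict. Deviations from the stage mean correlated at 0.69 to 0.79 within the 5 pairs used, and at -0.36 to 0.11 between all other libraries of different stages. Every paired library correlated best with its partner. The controls' own replicate numbers showed no such match (-0.27 to -0.03). With the pair as a block, 12253 of 18514 rows were called (66.2%), 6031 higher (32.6%) and 6222 lower (33.6%), including 6885 of the 6912 rows called without it. The same libraries without the block gave 7083 calls. With the morpholino numbers in place of the Siamois numbers 8593 rows were called, and with the LiCl numbers 9748. In the Wnt8 and Cerberus set alone, its 3 pairs as a block gave 11370 calls of 17996 rows, against 6230 without the block. Rows called with at least 2-fold were 1458 higher and 1460 lower with the 5 pairs as a block. In the Wnt8 and Cerberus set alone with its 3 pairs they were 1393 higher and 1663 lower.

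**Figure D5:**
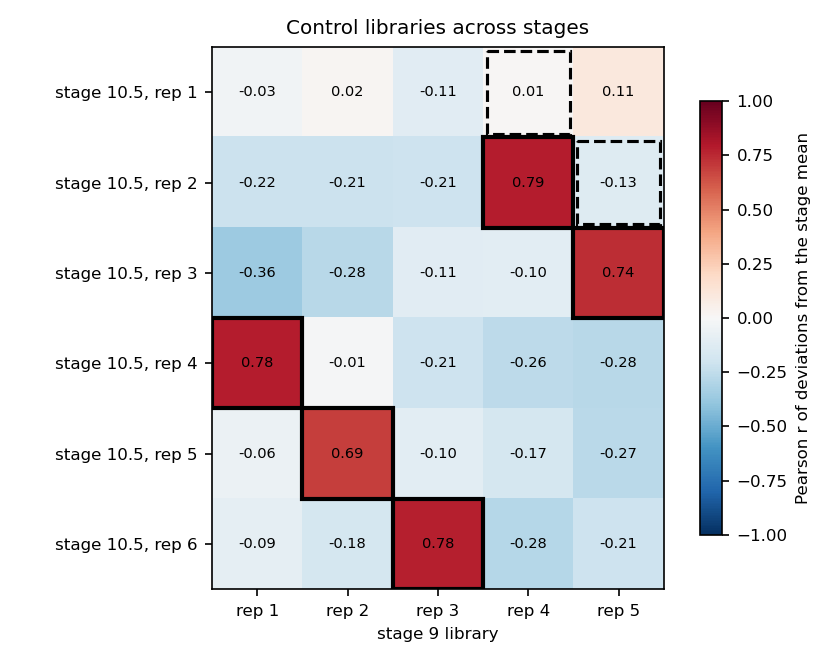
Pearson correlation, across tested rows, of each stage 10.5 control library's deviation from its stage mean (rows) with that of each stage 9 control library (columns). Solid boxes mark the 5 pairs used, and dashed boxes the 2 other pairs that the morpholino and LiCl numbers in the sample titles name. Values in solid boxes lie between 0.69 and 0.79, those in dashed boxes are 0.01 and -0.13, and no value outside the solid boxes exceeds 0.11.

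Some members came to be called only within pairs. The foxh1.S row had 11.3, 0.365, 18.2, 1.996, 9.31 and 9.50 RPKM in the stage 10.5 replicates, against 4.45, 31.6, 28.7, 0.541 and 43.8 RPKM in the stage 9 replicates. The level varied widely between libraries of the same stage, and without pairing it was not called (adjusted p = 0.57). In each of the 5 pairs used the stage 10.5 library was below its stage 9 partner, and with the pairing foxh1.S fell by 1.03 (adjusted p = 0.0019). In the pair of stage 10.5 replicate 2 and stage 9 replicate 4 both values were low, at 0.365 and 0.541 RPKM. Of the conflicting pairs, stage 10.5 replicate 1 with stage 9 replicate 4 went the other way (11.3 against 0.541 RPKM). Stage 10.5 replicate 2 with stage 9 replicate 5 did not (0.365 against 43.8 RPKM).

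Rows present in a single table could not be compared. Of 6818 rows found only in the stage 10.5 table, 5700 were at 0 in every control of that stage and none had 1 RPKM in 2 libraries. The highest was darmin.L, an endodermal peptidase gene, with 0.197 to 2.82 RPKM (median 0.558). Of 161 rows found only in the stage 9 table the highest mean was 0.0407 RPKM.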

How the data were processed

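RNA of 11 control whole-embryo libraries was measured by polyA-selected RNA-seq. The authors deposited RPKM per gene model and library, per the file headers, in a separate table for each stage. The submitters' processing notes name TopHat2 2.09 and DESeq without saying what each was used for. No source used here gives the genome build, annotation or strand setting, and the library kit does not mark strand, so overlapping antisense genes cannot be told apart. Rows above 0 in at least 5 libraries of a table were checked, 34080 at stage 10.5 and 30836 at stage 9. In all of them the RPKM were whole multiples of 1 read within 0.005. The gene length of each row was taken as the shortest that made this so. The reads of each row and the read total by which each library's RPKM were divided were recovered from these steps. No table column of control values was left unused apart from an average column in each table.

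Tables were joined on the gene model identifier (36844 rows; 6 repeated rows were dropped). RPKM were scaled by the median of ratios over joined rows, since the tables had been normalised separately by the authors, so table and stage cannot be told apart, and log2(scaled RPKM + 0.5) of rows with 1 RPKM or more in at least 2 libraries was fitted with limma 3.58.1 (trend) in R 4.3.3, with Benjamini-Hochberg adjustment over all 18597 rows. The homeolog ratio was the difference of the 2 copies' log2 values, fitted with limma without the trend and adjusted over the pairs. The scripts were tested on simulated data. Symbols came from the row identifier (15955 rows), the best human match (13054) or the authors' description (18), and 7817 rows had none.

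Named rows were the largest changes and the most abundant called rows, the 2 largest in each direction of each list, and the homeolog pairs with the largest ratio changes; other members named were chosen after their values were seen. The comparison, lists and tests were chosen with earlier results of these data known. The pairing of control libraries across stages comes from the numbers of Wnt8, Cerberus and Siamois libraries in the same batch. It was added after seeing the data, and was chosen over conflicting pairs that the morpholino and LiCl numbers in the sample titles name. Deviations from the stage mean correlated at 0.69 to 0.79 in the 5 pairs used, and at 0.01 and -0.13 in the conflicting ones. No 2 libraries of a stage agreed within sampling noise: the chi-square statistic per degree of freedom was at least 47.5. Alternatives were other pseudocounts, filters, scalings, voom on recovered reads, a replicate block, each set alone and each library left out.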

Additional observations from a re-analysis of the deposited data

Results flagged for a closer look

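Among the rows named by rule, 7 of 214 groups of libraries (3.27%) held 1 library far from the others by Dixon's criterion, where chance gives about 1 in 20. At stage 10.5, replicate 6 had 2.98 RPKM of LOC394448.L, a cyclin B2 match, against 7.56 to 12.8 RPKM in the other 5. Replicate 4 had 290.5 RPKM of Xelaev18014220m, a histone H2A match, against 87.6 to 132 RPKM in the others. Replicate 1 had 11.7 RPKM of dlc.L, against 29.2 to 39.2 RPKM, and 36.3 RPKM of LOC100497528.S, a tubulin match, against 122 to 157 RPKM. Replicate 3 had 48.7 RPKM of ddx4.L, against 57.4 to 62.7 RPKM. At stage 9, replicate 1 had 0.733 RPKM of ccnd1.L, against 0.145 to 0.265 RPKM in the other 4. Replicate 4 had 0.0758 RPKM of LOC101730334.S, against 0.00918 to 0.0235 RPKM, all below the filter on low values.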

How the results depend on the processing

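The count of called rows, 6912, was 4307 with the controls' own replicate number as a replicate block, which left out stage 10.5 replicate 6 (6091 without the block), 1815 in the β-catenin morpholino, LiCl and Siamois set alone, which holds 5 libraries, 12253 with the pairing through treated libraries, and 11370 with only the 3 pairs of the Wnt8 and Cerberus set. The numbers of the controls do not pair the samples, as the deviations of same-numbered libraries correlated at -0.27 to -0.03. Leaving out 1 library gave 5893 to 7083 calls. The 2706 calls of at least 2-fold became 1591 in that set alone, with 801 higher and 790 lower, and 2517 to 2868 with 1 library left out. Called homeolog ratios, 652, became 414 with a mean of at least 5 RPKM in both copies, 275 with the replicate block, 1789 with the pairing, and 505 to 692 with 1 library left out. Of rows only in the stage 10.5 table, 1 had a mean of 0.5 RPKM or more. With voom on recovered reads 7087 rows were called.

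Of the counts of list members recomputed, 1079 stayed within 1.5 times and 102 moved further. No row named by rule changed direction in any setting run. Single rows named by rule kept their side of the threshold in 2605 refits, lost it in 57 and gained it in 5. Other rows named in the text were not covered, and some that were not called changed sign. The sia1 row Xelaev18019203m went from 0.05 to -0.09 with RPKM as deposited. The row nkd1.S went from -0.13 to 0.005 with upper-quartile scaling. Beyond the values given with the results, and LOC101730334.S (adjusted p = 0.019 with the pairing), the pairing changed the call of no row named by rule. The cause of these changes was not tested. Depth limits rows near 1 RPKM, and RPKM alone gave no counting interval.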

Other observations

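Many rows differed between pairs of control libraries at both stages. With pair and stage both in the limma fit, the pair term was called in 10913 of 18514 rows (58.9%), in 4105 of them with pair means at least 2-fold apart and in 864 at least 4-fold. The pairs of the β-catenin morpholino, LiCl and Siamois set were chosen after seeing these same data, so the count is no independent test of the pairing. The pair term also takes in differences between the sets. The row Xelaev18000956m, matched to plscr1, a phospholipid scramblase gene, had 0.0519, 0.272, 0.171, 28.2, 46.6 and 27.4 RPKM in the stage 10.5 replicates, against 29.5, 49.6, 24.9, 0 and 0.0758 RPKM in the stage 9 replicates. It was high in the controls of the Wnt8 and Cerberus set and near 0 in those of the other set, at both stages. The row nsun4.L, an RNA methyltransferase gene, had 8.48, 27.0, 19.6, 18.6, 3.38 and 0.0178 RPKM in the stage 10.5 replicates, against 24.3, 5.44, 0, 29.1 and 18.5 RPKM in the stage 9 replicates. It was near 0 in stage 10.5 replicate 6 and stage 9 replicate 3, which form a pair, and well above 0 in every other library. The smad4 match Xelaev18011096m, the common partner of the signalling Smads, had 496, 73.8, 165, 48.5, 77.6 and 69.5 RPKM in the stage 10.5 replicates, against 31.0, 55.8, 64.4, 56.5 and 80.3 RPKM in the stage 9 replicates. Stage 10.5 replicate 1 was the highest; without the pairing the row was not called (adjusted p = 0.1), and with it, and without that replicate, it rose by 0.68 (adjusted p = 0.00075).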
